A study of Mus musculus with 28 samples.

Results

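The epidermal differentiation complex is a cluster of genes on mouse chromosome 3 whose products make and seal the cornified outer layer of skin. Its members were chosen by symbol: every gene named Lce, Sprr or S100a with a number, and Flg, Flg2, Hrnr, Ivl, Lor, Kprp, Crct1, Rptn, Tchh, Tchhl1 and Crnn. The rule found 63 genes among the 58655 distinct symbols of 3 RNA tables. There were 13 S100a genes, 18 Sprr genes, 21 Lce genes, 7 S100-fused genes (Flg, Flg2, Hrnr, Rptn, Tchh, Tchhl1, Crnn) and 4 single genes (Lor, Ivl, Kprp, Crct1). Each table listed 62 of them. Sprr5 has no row in the bulge or SMART-seq table, and Sprr2a1 has none in that of hair germ SHERRY2. A read in any library was seen for 47 of the 62 in the bulge, for 46 by SMART-seq and for all 62 in hair germ SHERRY2.

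As keratinocytes move outward and differentiate, transglutaminases crosslink involucrin, loricrin, small proline-rich (SPRR) and late cornified envelope (LCE) proteins into an insoluble envelope beneath the cell membrane, while filaggrin and its relatives bundle keratin filaments. S100A proteins are small calcium-binding proteins, several of which are made throughout the epidermis and not only in its outer layers. In the hair follicle, trichohyalin takes the place of filaggrin in the inner root sheath, and bulge and hair germ stem cells are basal-type cells that do not form an envelope. AP-1 factors (dimers of FOS and JUN proteins) are known regulators of loricrin, involucrin and SPRR genes.

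The study compared hair follicle stem cells from the skin of Alkbh5 conditional knockout (cKO) mice with those from wild-type (WT) mice, all at postnatal day 69. ALKBH5 removes the methyl mark m6A from RNA. Cells were sorted by flow cytometry, and RNA libraries were made from bulge cells by SHERRY2, which tags RNA-cDNA hybrids with a transposase, and from hair germ cells by SHERRY2 and by SMART-seq, which amplifies full-length cDNA. Each of these 3 datasets had 2 WT and 2 cKO mice, called WT1, WT2, cKO1 and cKO2 after the mouse numbers of the labels, and the 16 m6A libraries were not analysed here. All mice are described by Alkbh5 genotype and age only. The sources used here do not give the Cre driver, the exon deleted, the markers of the sort, the strain or which mice were littermates.

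Alkbh5 stood at 107 and 96.1 CPM (reads scaled to library size) in the bulge WT libraries and at 4.21 and 2.38 in the cKO libraries. In hair germ SHERRY2 its normalized read count was 93.0 and 47.4 in WT and 19.8 and 13.1 in cKO. By SMART-seq it was 136 and 94.2 CPM in WT and 83.5 and 106 in the libraries labelled cKO, so those groups overlapped and every SMART-seq direction below rests on labels that this gene does not separate. Bulge libraries held 14676168 to 21187283 reads, SMART-seq libraries 9001396 to 14416601 and hair germ SHERRY2 libraries 488648 to 2317407. In hair germ SHERRY2, between 1609 and 1788 of 1907 olfactory and vomeronasal receptor genes, for which skin has no known use, had reads, against 44 to 54 of 2002 in the bulge. The 95th percentile of reads on such a gene was 13 in WT1, 10 in WT2, 18 in cKO1 and 13 in cKO2, and a member at or below that level is not told from this background. Bulge markers all had reads in the bulge libraries (Cd34 at 136 to 366 CPM). In hair germ SHERRY2 the hair germ marker Shh stood at 1.96 to 6.32 normalized counts, while Cdh3 stood at 28.5 to 130. Summed over 10 genes, bulge markers stood at 6308 to 9827 CPM in the bulge and at 5232 to 10427 by SMART-seq, which overlap. Summed over 8 genes, hair germ markers stood at 729 to 1159 CPM in the bulge and at 1267 to 1590 by SMART-seq. In hair germ SHERRY2 the sums were 3717 to 12114 for bulge and 558 to 1513 for hair germ markers, in normalized counts. Sums in that unit do not compare with CPM, and how far the sorts separated both populations was not tested. By Xist and Y-linked reads, WT2 of the bulge, cKO1 of hair germ SHERRY2 and both SMART-seq mice numbered 2 were male and the other mice female.

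Promoters show how these families differ in sequence, and 53 members have one in the RefSeq table of build GRCm38.p6. Over the 250 bases before the start site, the AP-1 motif TGACTCA, searched on both strands (TGAGTCA on the other), was present in 11 of the 53 (20.8%) and in 4.43% of all 27025 promoters. The TATA box TATAAA, also searched on both strands (TTTATA on the other), was present in 22 (41.5%), against 13% of all, and the matches in Lce3e and Lce6a are on the other strand. The grainyhead motif AACCGGTT was in 0 of the 53 and in 0.122% of all. AP-1 matches were in 8 of 14 Sprr promoters, in both Lor and Ivl, and in S100a11. They were in 0 of 20 Lce and 0 of 7 S100-fused promoters. In Sprr2b, Sprr2d, Sprr2e, Sprr2f, Sprr2h, Sprr2i and Sprr2k, an AP-1 match begins 193 to 198 bases before the start site. All of these have a TATA box at 29 bases. As these promoters are alike, the shares above do not rest on independent promoters. The promoters of the 2 genes that passed the bulge test (Sprr1a and S100a13) and of a gene from each envelope family are printed below, with motif matches in capitals. They are Sprr1a (chr3:92485882-92486131, minus strand), Ivl (chr3:92573736-92573985, minus strand), Lor (chr3:92083143-92083392, minus strand), Lce1m (chr3:93019062-93019311, minus strand) and S100a13 (chr3:90514185-90514434, plus strand).
Sprr1a: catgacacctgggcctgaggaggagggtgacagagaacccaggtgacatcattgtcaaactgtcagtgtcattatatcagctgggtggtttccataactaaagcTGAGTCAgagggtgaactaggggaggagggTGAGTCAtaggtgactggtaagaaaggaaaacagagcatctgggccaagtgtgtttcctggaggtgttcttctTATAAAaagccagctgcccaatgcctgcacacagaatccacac
Ivl: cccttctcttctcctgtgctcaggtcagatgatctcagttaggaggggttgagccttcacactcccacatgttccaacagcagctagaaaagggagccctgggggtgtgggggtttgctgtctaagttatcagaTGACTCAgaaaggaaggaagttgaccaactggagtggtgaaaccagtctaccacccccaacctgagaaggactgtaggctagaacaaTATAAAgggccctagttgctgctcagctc
Lor: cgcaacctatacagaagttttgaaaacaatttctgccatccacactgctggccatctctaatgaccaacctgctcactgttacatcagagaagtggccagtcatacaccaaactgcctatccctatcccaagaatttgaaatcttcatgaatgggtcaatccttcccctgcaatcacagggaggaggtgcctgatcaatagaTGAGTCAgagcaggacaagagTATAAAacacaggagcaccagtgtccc
Lce1m: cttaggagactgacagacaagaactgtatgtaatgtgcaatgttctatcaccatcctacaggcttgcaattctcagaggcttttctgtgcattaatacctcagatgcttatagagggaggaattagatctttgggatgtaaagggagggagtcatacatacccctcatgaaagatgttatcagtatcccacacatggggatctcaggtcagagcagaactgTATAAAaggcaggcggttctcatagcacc
S100a13: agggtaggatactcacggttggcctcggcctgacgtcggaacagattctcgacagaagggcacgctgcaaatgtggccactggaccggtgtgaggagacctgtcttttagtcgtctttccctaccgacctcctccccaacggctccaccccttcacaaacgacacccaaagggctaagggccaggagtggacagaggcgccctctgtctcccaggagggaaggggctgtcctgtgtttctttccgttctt
Sprr1a has AP-1 matches that begin 146 and 116 bases before its start site and a TATA box at 43 bases before it. Ivl has 1 AP-1 match at 116 bases and a TATA box at 29, Lor has them at 48 and 27 bases, and Lce1m has a TATA box alone, at 29 bases. The S100a13 window holds none of the 3 motifs. It also spans the start of S100a1, which is read in the other direction, with 104 bases between both start sites. A match to such letters is a description of the sequence and not evidence of binding.

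S100a genes gave most reads of the complex in 11 of the 12 libraries, the exception being WT1 of hair germ SHERRY2, with 3913 of 10192 reads. In the bulge, the summed level of the S100a genes was 2350 and 2610 CPM in WT and 2054 and 1990 in cKO. That of the Sprr genes was 30.2 and 70.7 in WT and 16.4 and 17.9 in cKO, and the Lce genes gave 89.2 and 18.3 in WT and 35.6 and 7.61 in cKO. Per length, S100a11 was the highest member of the bulge, at 1115 to 1337 FPKM in the deposited values, followed by S100a10 at 299 to 457. The highest envelope gene was Lor, at 16.3 to 152 FPKM, then Sprr1a at 13.8 to 68.1. The spread of Lor over the 4 libraries overlaps that of Sprr1a, so their order is not resolved. In hair germ SHERRY2, WT1 stood apart: Lce genes summed to 1755 normalized counts there and to 38.9 to 49.0 in the other 3 libraries. By SMART-seq the Lce genes summed to 0.940 to 8.59 CPM and the Sprr genes to 59.7 to 252.

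**Figure D1:**
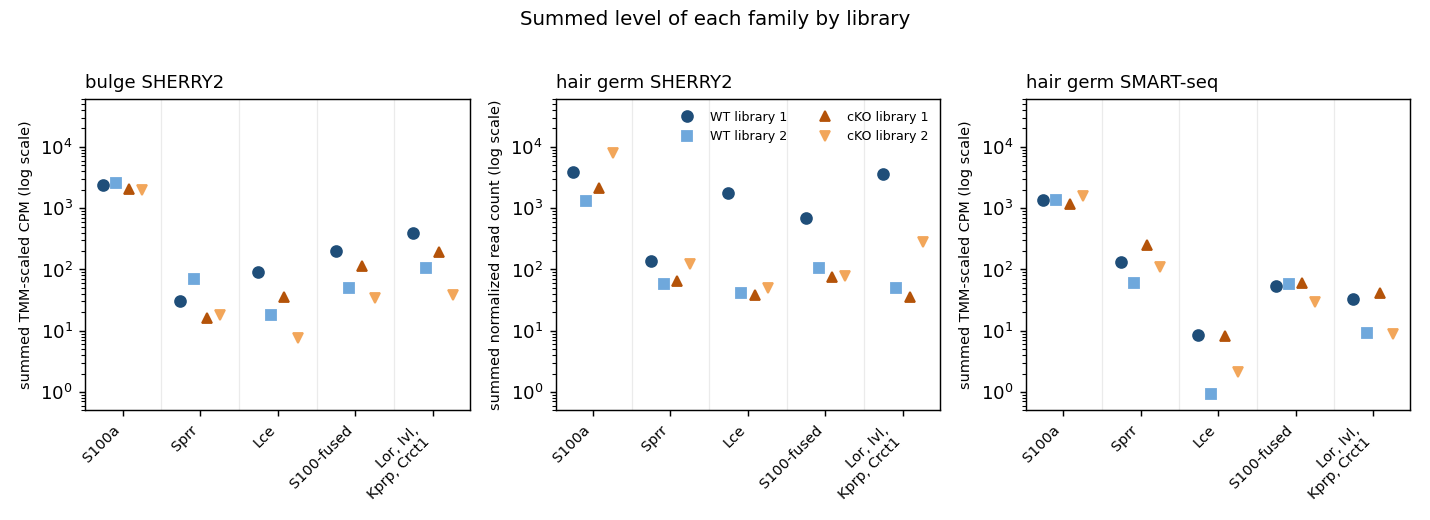
Summed level of each gene family in each library (log axis), as TMM-scaled CPM for the bulge and SMART-seq and as deposited normalized read counts for hair germ SHERRY2; each point is 1 library. S100a sums in the bulge lie between 1990 and 2610 CPM, whereas WT1 of hair germ SHERRY2 lies far above the other 3 libraries in the Lce family.

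The first comparison asks which members differ between genotypes in bulge stem cells. Sprr1a and S100a13 were lower in cKO, and no member was higher. Of the 62 members listed, 32 passed the filter on low counts, and 2 were lower at an adjusted p under 0.05 in edgeR, beside 1.6% of all 15672 genes tested that were lower and 1.44% that were higher. Negative log2 fold changes were found for 26 of the 32, with a median of -0.73 against -0.01 over all genes tested. As a gene can pass the filter through 1 group alone, these are descriptions of the members that passed. Both cKO libraries lay below both WT libraries for 10 members, against 26.2% of all genes tested, and above them for 2, against 24.7%. Bulk RNA does not separate fewer cells of a type from less RNA per cell. WT2 was the only male mouse of the bulge dataset, so sex was not balanced between genotypes, and its part in these values was not tested.

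Among the calcium-binding proteins, S100a13, which takes part in the export of growth factors that lack a signal peptide, was at 20.7 and 22.8 CPM in WT and 10.6 and 9.99 in cKO. The 2 groups do not overlap, and the libraries of a genotype lie close together. The log2 fold change was -1.08 (SE 0.21, n = 2 against 2, edgeR adjusted p = 0.0438). It stayed between -1.15 and -1.02 whichever library was left out, but did not pass without WT1 (edgeR adjusted p = 0.0785) or without WT2 (0.193). Its neighbour S100a1, a calcium sensor, stood at 18.8 and 19.8 CPM in WT and 14.3 and 9.08 in cKO (log2 -0.72, SE 0.27, edgeR adjusted p = 0.196). S100a10, the partner of annexin A2, was just outside the threshold. It stood at 571 and 578 CPM in WT and 343 and 343 in cKO (log2 -0.75, SE 0.16, edgeR adjusted p = 0.0512). DESeq2 called S100a10, Ivl and Sprr4 as lower beside Sprr1a and S100a13, 5 of 47 members tested, against 2.3% of all genes (DESeq2 adjusted p = 0.000364, 0.0161 and 0.00671 for S100a10, Ivl and Sprr4). S100a11, the highest member, was at 645 and 595 CPM in WT and 617 and 644 in cKO, which overlap (log2 0.02, SE 0.17, edgeR adjusted p = 0.96). S100a6 was at 339 and 440 CPM in WT and at 409 and 287 in cKO, where the groups overlap. S100a4, which leukocytes and fibroblasts also express, was at 75.4, 78.5 and 66.5 CPM in WT1, WT2 and cKO1 and at 24.8 in cKO2. S100a8 and S100a9, the calprotectin pair of neutrophils and inflamed skin, had 0 to 13 reads in any bulge library, and the 12 neutrophil markers summed to 2.66 to 7.36 CPM. Ly6g, Retnlg, Ngp, Ltf and Elane were at 0 in all 4 libraries, while Mmp9, which other cells also make, had 27 to 134 reads and Lcn2 7 to 59.

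Sprr1a codes for a small proline-rich protein of the envelope that keratinocytes also raise under stress. It was at 24.8 and 57.3 CPM in WT and 11.1 and 10.5 in cKO. Both cKO values lie below the lower WT value, and the WT libraries differ from each other more than the cKO libraries do. The log2 fold change was -1.92 (SE 0.37, n = 2 against 2, edgeR adjusted p = 0.0386), and it lay between -2.41 and -1.21 whichever library was left out. Without WT2, the library with the highest value, it did not pass (log2 -1.21, edgeR adjusted p = 0.104). Sprr4, the next gene along the chromosome, was at 3.42 and 10.6 CPM in WT and 0.805 and 1.85 in cKO (log2 -2.37, SE 0.66, edgeR adjusted p = 0.106). For Sprr2a3 both cKO libraries lay above both WT libraries, with 1.53 and 1.21 CPM in WT and 3.16 and 3.42 in cKO (log2 1.25, SE 0.49, edgeR adjusted p = 0.217). The Sprr2a copies are nearly identical and 2 of them overlap in the table, so reads may be split among them. Sprr2a3 rests on 17 to 72 reads a library.

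Involucrin, the first scaffold of the envelope, stood at 18.7 and 16.8 CPM in WT and 9.96 and 5.61 in cKO. The groups do not overlap (log2 -1.19, SE 0.31, edgeR adjusted p = 0.0922). Crct1, a cysteine-rich protein of cornifying cells, was at 47.1 and 15.4 CPM in WT and 12.7 and 2.09 in cKO (log2 -2.10, SE 0.77, edgeR adjusted p = 0.192). Loricrin, the main envelope protein, was at 292 and 68.8 CPM in WT and 147 and 27.4 in cKO. Here the libraries interleave: WT1 was the highest, cKO1 lay above WT2, and cKO2 was the lowest (log2 -1.05, SE 0.79, edgeR adjusted p = 0.537). Kprp, a keratinocyte proline-rich protein, had the same order, at 41.5 and 5.41 CPM in WT and 19.0 and 3.71 in cKO.

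Flg2, Flg and Hrnr, genes of the S100-fused family, had that order as well. Flg2, a filaggrin relative, was at 151 and 26.7 CPM in WT and 68.4 and 11.2 in cKO (log2 -1.17, SE 0.88, edgeR adjusted p = 0.535). Flg itself was at 11.6 and 3.20 CPM in WT and 7.49 and 1.28 in cKO, and hornerin at 25.1 and 6.76 in WT and 22.5 and 6.04 in cKO (hornerin log2 -0.18, SE 0.69). Tchh, Rptn and Crnn of that family did not have it. Rptn was at 0.613 and 0.925 CPM in WT and 0 and 1.19 in cKO, and Crnn had 0 reads in both WT libraries and 5 and 2 in cKO. Tchh was at 11.8 and 12.5 CPM in WT and 13.6 and 14.5 in cKO (log2 0.21, SE 0.23, edgeR adjusted p = 0.684). Among late cornified envelope genes, which code for short cysteine- and glycine-rich proteins, Lce1m was the highest. It was at 54.9 and 12.3 CPM in WT and 15.2 and 2.62 in cKO (log2 -1.94, SE 0.83, edgeR adjusted p = 0.262). Lce1a1 stood at 6.85 and 1.14 CPM in WT and 4.70 and 1.81 in cKO, and Lce1a2 at 6.49 and 0.996 in WT and 2.91 and 0.476 in cKO. Lce3 genes, which belong to the wound response of skin, had at most 5 reads in any bulge library.

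The order WT1, cKO1, WT2, cKO2 held for 10 of the 18 envelope and S100-fused members with a mean of at least 1 CPM: Flg, Flg2, Hrnr, Kprp, Lor, Lce1a2, Lce1b, Lce1c, Lce1m and Lce6a. For 12 of the 18, both libraries numbered 1 lay above both numbered 2, which held for 13.7% of all genes tested. The labels do not say that a number marks a shared litter or day. Sprr1a, Sprr4, Ivl and Crct1 did not share the order of loricrin: in each of them both WT libraries lay above both cKO libraries. Single libraries moved the counts and the sign of the median. Over the tested members outside the S100a family, the median log2 fold change was -0.78 with all libraries and 0.33 without WT1, -1.36 without WT2, -1.38 without cKO1 and -0.20 without cKO2. Of all members tested, 2 of 33 were lower without WT1 (Sprr1a and Sprr4), beside 1.51% of all genes tested in that fit, and 0 of 37 without WT2, beside 0.855%. Without cKO1, 17 of 37 were lower, beside 4.84% of all genes, and without cKO2 5 of 33, beside 2.38%.

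**Figure D2:**
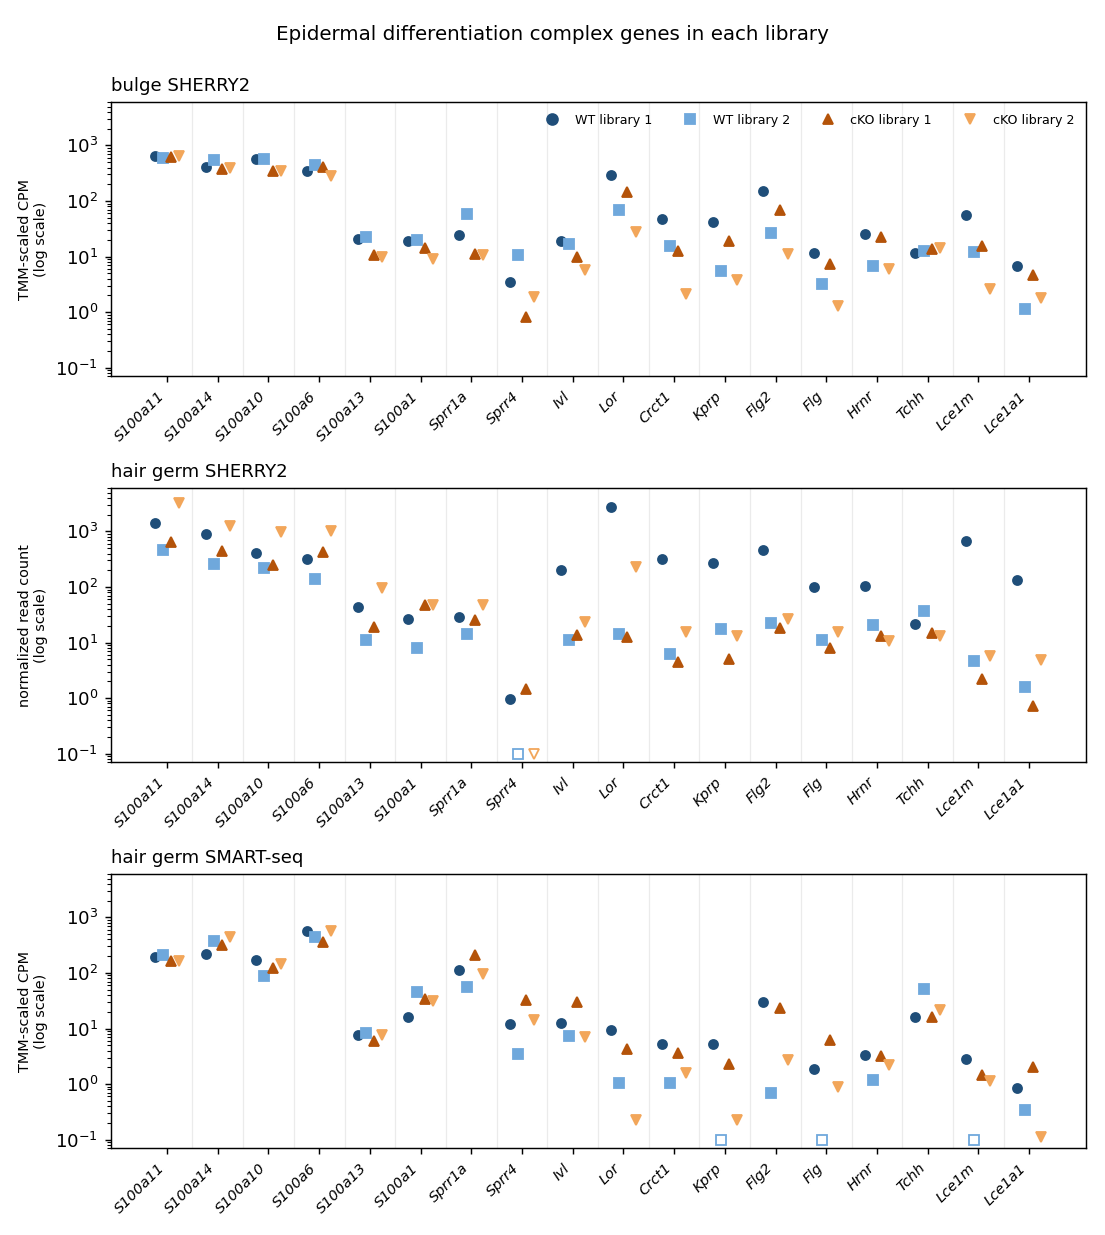
Level of 18 members in each library (log axes), 1 point per library, in TMM-scaled CPM (bulge and SMART-seq) or normalized read counts (hair germ SHERRY2); open symbols at the bottom are levels under 0.1. In the bulge, Sprr1a lies at 24.8 and 57.3 CPM in WT and at 11.1 and 10.5 in cKO, while Lor, Kprp, Flg2, Flg, Hrnr and Lce1m interleave by mouse number.

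Genes outside the complex that make or regulate the same layer were read in the same bulge libraries, from lists chosen with earlier results of these data known. The counts below stand beside 1.6% of all 15672 genes tested that were lower and 1.44% that were higher. The summed level of suprabasal keratins, the filaments of differentiating cells, did not share the spread of loricrin. It was 7493 and 7416 CPM in WT and 6714 and 5992 in cKO, and 0 of 8 passed. Krt10, a large part of that sum, was at 3269 and 3430 CPM in WT and 3358 and 3064 in cKO. Negative log2 fold changes were found for 7 of the 8, with a median of -0.56 against -0.01 over all genes. Of 21 envelope partners outside the complex, 1 was lower: Krtdap, a secreted product of suprabasal cells, at 325 and 300 CPM in WT and 189 and 181 in cKO (log2 -0.76, SE 0.15, edgeR adjusted p = 0.0425). Of 22 regulators, Cebpb and Ehf were lower and Notch1 was higher. Cebpb was at 99.5 and 90.9 CPM in WT and 43.9 and 38.0 in cKO, and Notch1 at 372 and 236 in WT and 977 and 970 in cKO. Of 20 immediate early and AP-1 genes, 8 were lower and 0 higher, with a median log2 fold change of -2.20 against -0.01 over all genes. Nr4a3, Arc, Egr2 and Egr3 had the smallest p, whereas Fos (8954 and 5694 CPM in WT, 3064 and 675 in cKO) did not pass (edgeR adjusted p = 0.136). The list summed to 53019, 32224, 15705 and 4006 CPM in WT1, WT2, cKO1 and cKO2. That is the order of Ivl and Crct1 and not that of Lor, nor that of Sprr1a and Sprr4, which were highest in WT2. Of 15 leukocyte markers, 12 were tested and 5 were lower in cKO. The list summed to 339 and 271 CPM in WT and 135 and 86.7 in cKO, and their defining member Ptprc stood at 0.999 to 5.83 CPM. Fibroblast markers had 1 of 5 tested lower, and upper follicle and sebaceous markers 3 of 10 higher and 1 lower. No gene passed among stress keratins (5 tested), barrier lipid and desquamation genes (19), neutrophil (2), melanocyte and Schwann (7), endothelial and muscle (5), inner root sheath and hair shaft (2), bulge (10) or hair germ (7) markers. No gene of these 15 lists passed in either hair germ dataset. The part of these lists in the values of Sprr1a and the other members was not tested.

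**Figure D3:**
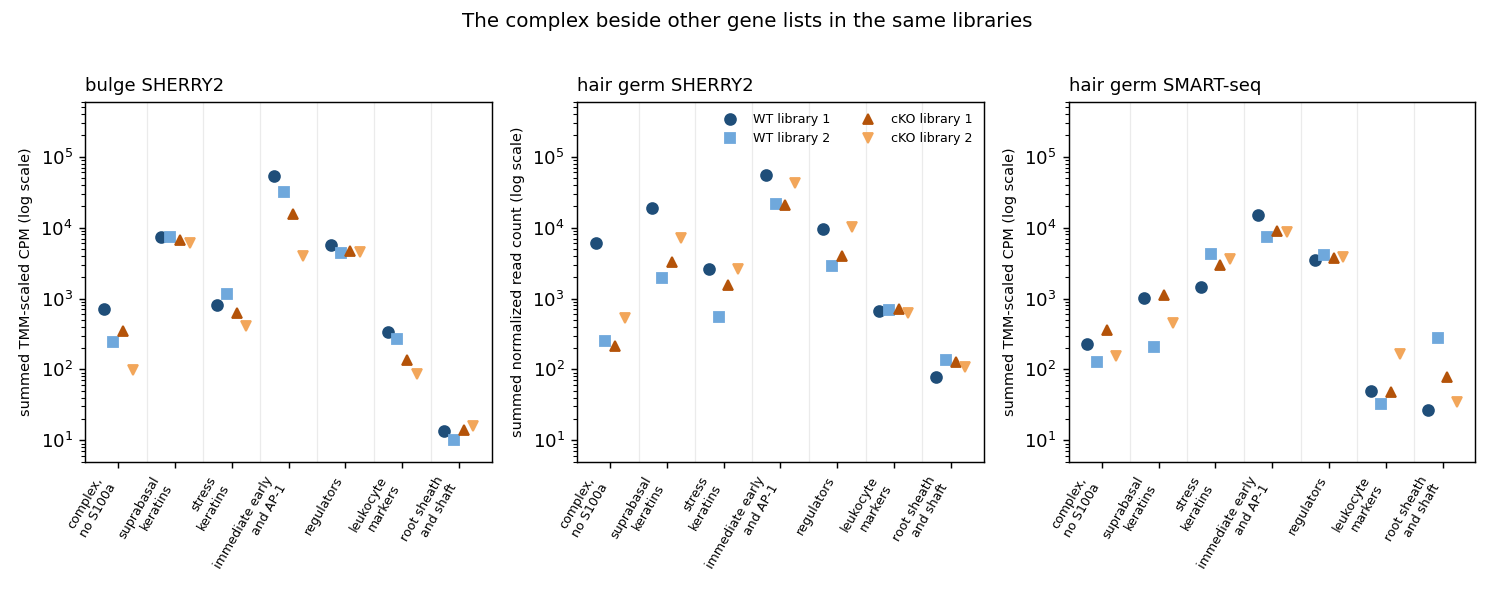
Summed level of the complex without S100a genes beside 6 other gene lists in each library (log axes; 1 point per library; TMM-scaled CPM or, for hair germ SHERRY2, normalized read counts). Suprabasal keratins lie between 5992 and 7493 CPM in the bulge, whereas in hair germ SHERRY2 they and the complex are both highest in WT1.

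The second comparison is that of hair germ stem cells by SHERRY2. No member passed in limma: 0 of 58 tested, beside 0.0% of 38953 genes called lower and 0.0077% called higher (19 of the 58 had an unadjusted p under 0.05, beside 4.62% of all genes). Both cKO libraries lay below both WT libraries for 12 members, against 16.4% of all genes tested, and above them for 6, against 16.4%. The median log2 fold change was -0.83, against 0.06 over all genes. Member reads outside the S100a family were concentrated in WT1, at 6279 against 161, 292 and 650 in WT2, cKO1 and cKO2. Over all members, cKO2 had 10544 reads and WT1 10192. Outside the S100a family, 23 members lay above the level of receptor genes in WT1, 4 in WT2, 4 in cKO1 and 10 in cKO2.

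Loricrin stood at 2763 normalized counts in WT1, at 14.2 in WT2, at 12.5 in cKO1 and at 230 in cKO2. WT1 is the highest library and cKO2 lies above WT2, so the groups overlap, and the 9 reads of WT2 and the 17 of cKO1 are within the receptor level. Lce1m showed 659 in WT1 against 4.74, 2.20 and 5.72 in WT2, cKO1 and cKO2 (log2 of the count plus 1, -3.73, SE 0.81, limma adjusted p = 0.0845). The smallest p of the members was that of Lce1i, with 31.3 and 4.74 in WT and 0.733 and 0 in cKO (log2 -3.37, SE 0.72, limma adjusted p = 0.0764). These are 32 and 3 reads against 1 and 0, and 3 of the 4 libraries are within the level of receptor genes. Kprp was at 266 and 17.4 in WT and 5.13 and 13.1 in cKO (log2 -2.92, SE 0.67, limma adjusted p = 0.152). Flg2 was at 463 in WT1 and at 22.1, 18.3 and 26.9 in WT2, cKO1 and cKO2, and Ivl at 204 in WT1 and 11.1, 13.9 and 23.7 in the others.

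Within the S100a family the order of the libraries varied. S100a11 was at 1390 and 454 normalized counts in WT and 643 and 3275 in cKO. It was highest in cKO2 and lowest in WT2, as were S100a10, S100a13, S100a14 and S100a16. Bulge markers had the order of S100a11 too, with sums of 9058, 3717, 4163 and 12114 in WT1, WT2, cKO1 and cKO2. Not all lists had it: suprabasal keratins and immediate early and AP-1 genes were highest in WT1. Summed reads of receptor genes, in CPM without TMM scaling, had the reverse order, at 5974, 13936, 8765 and 3972. The part of this background in the member values was not tested. S100a6 lay above WT in both cKO libraries, at 318 and 141 in WT and 421 and 1016 in cKO (limma adjusted p = 0.97). S100a1 did as well, with 26.4 and 7.91 in WT and 47.7 and 47.4 in cKO (limma adjusted p = 0.97). The WT2 value of S100a1 is within the receptor level. Both cKO libraries lay below both WT libraries for S100a2, S100a3 and S100a5, at 2 to 14 reads a library, and S100a4 and S100a8 were highest in WT1, at 1 to 7 reads. Sprr1a was at 29.4 and 14.2 in WT and 24.9 and 47.4 in cKO, and the groups overlap. The WT2 value of Sprr1a is also within the receptor level. Tchh had 16 to 23 reads a library, above the receptor level in each, with 21.5 and 36.4 normalized counts in WT and 14.7 and 13.1 in cKO.

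When edgeR was run on reads recovered from the normalized counts, 6 of 20 members tested were lower: Kprp, Flg2, Hrnr, Ivl, Flg and Crct1. Of all 16707 genes tested in that way, 0.275% were lower and 0.102% higher. Of the 6 members, only Flg2 lay above the receptor level in every library. Ivl, Flg and Crct1 were within it in WT2, Kprp, Hrnr, Flg and Crct1 in cKO1, and Hrnr in cKO2. Leaving a library out leaves its group with 1 mouse, and a gene can then pass the filter through 1 library alone. Without WT1, the median log2 fold change of the 22 members tested was 0.39, or -0.30 outside the S100a family. Without WT2, it was -3.18 over 35 members tested, or -4.43 outside that family. Without cKO1, it was -2.57 over 34 members, or -3.35 outside the family. Without cKO2, it was -2.49 over 36, or -3.95 outside the family. These medians describe the members that passed each filter. DESeq2 on the recovered reads of all libraries called 0 members. Suprabasal keratins were highest in the same library, at 19157 normalized counts in WT1 and 1929, 3263 and 7072 in WT2, cKO1 and cKO2. Krtdap stood at 3621 in WT1 and 176, 425 and 1976 in the others. The part of these genes in the member values was not tested.

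**Figure D4:**
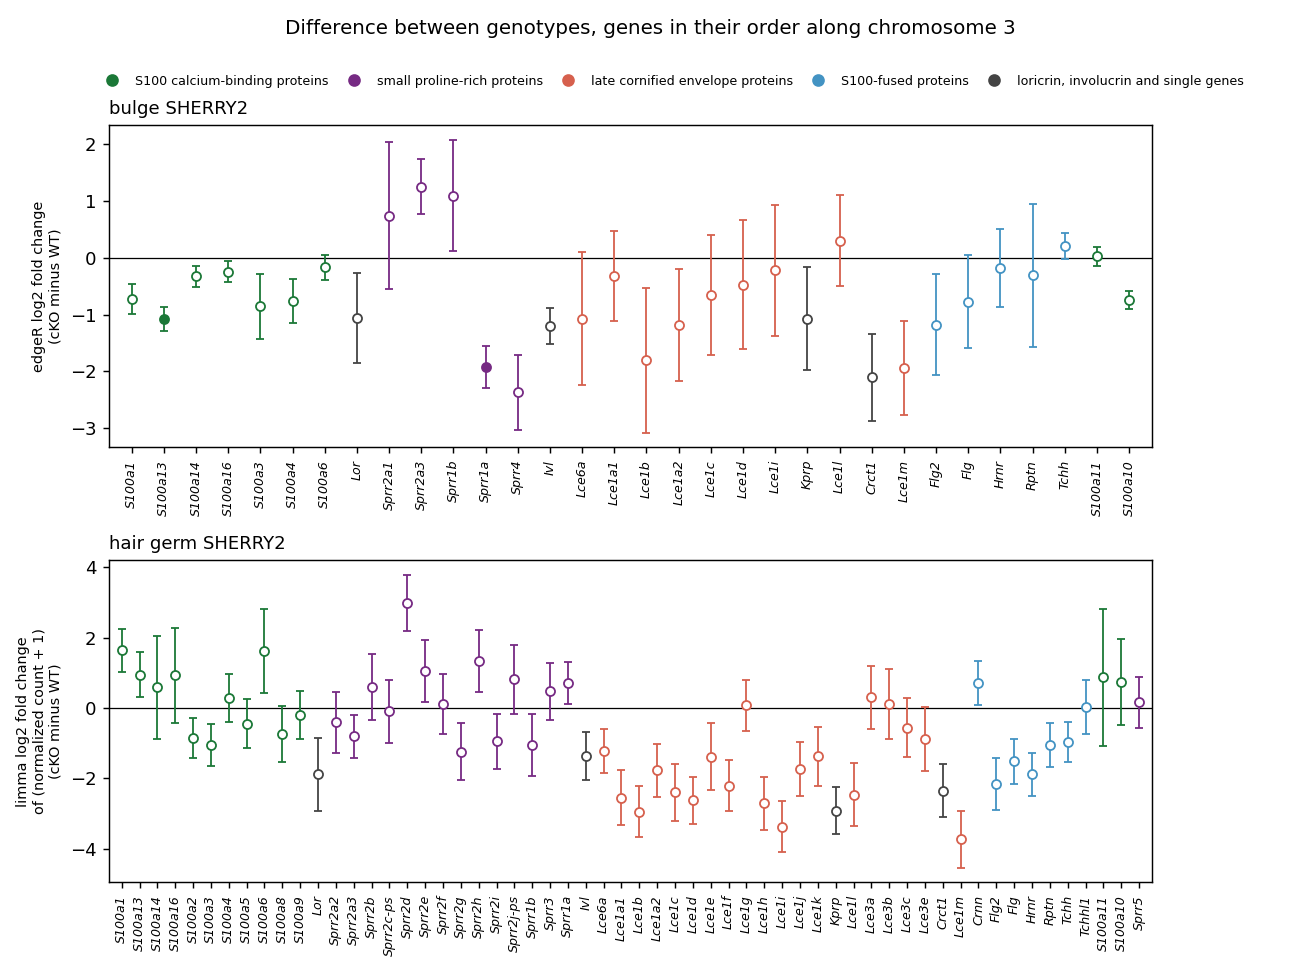
Log2 fold change of cKO over WT with its standard error for each member tested in the bulge (edgeR) and in hair germ SHERRY2 (limma, log2 of the normalized count plus 1), with genes in their order along chromosome 3 and Sprr5, which has no position in the bulge table, last; filled points pass an adjusted p of 0.05. Sprr1a and S100a13 are the 2 filled points in the bulge, and no member is filled in hair germ SHERRY2.

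The third comparison is that of hair germ cells by SMART-seq. In edgeR 0 of 25 members tested passed, and 0 had an unadjusted p under 0.05. Of all 17547 genes tested, 0.0% were called lower and 0.0% higher. DESeq2 also called 0 members. Both libraries labelled cKO lay below both WT libraries for 2 members, against 12.5% of all genes tested, and above them for 1, against 11.8%. Sprr1a was far higher here than Lor: per length, 69.5 to 270 FPKM against 0.125 to 5.07. Sprr1a stood at 113 and 55.4 CPM in WT and 214 and 95.9 in the libraries labelled cKO, where the groups overlap (log2 0.88, SE 0.50, edgeR adjusted p = 1). Sprr4 was at 12.2 and 3.50 CPM in WT and 32.7 and 14.5 in the libraries labelled cKO, and the groups do not overlap (log2 1.58, SE 0.70, edgeR adjusted p = 1). S100a11 was at 194 and 212 CPM in WT and 167 and 164 in the libraries labelled cKO (log2 -0.29, SE 0.18, edgeR adjusted p = 1).

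Several envelope and S100-fused members were split by mouse number in the SMART-seq libraries. Flg2 was at 29.4 and 0.684 CPM in WT and 23.1 and 2.68 in the libraries labelled cKO. Lor was at 9.31 and 1.03 in WT and 4.24 and 0.224 in the others, and Ivl at 12.6 and 7.27 in WT and 30.5 and 6.93. For 12 of 14 envelope and S100-fused members with a mean of at least 1 CPM, both libraries numbered 1 lay above both numbered 2, against 22.8% of all genes tested. Suprabasal keratins had the same split, at 1009 and 206 CPM in WT and 1134 and 448 in the libraries labelled cKO. Mice numbered 1 were female and those numbered 2 male, so number and sex cannot be told apart. Tchh was highest in WT2, at 50.9 CPM against 16 to 21.9 in the other libraries. Inner root sheath and hair shaft markers were also highest in WT2, at 275 CPM in sum against 26.7 to 78.0, and Krt71, a keratin of that sheath, stood at 109 CPM there and at 3.94 to 28.1 in the others. The part of these cells in the Tchh value was not tested.

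Whether the genotype effect of a member differed between bulge and hair germ was tested in joint edgeR fits. Against hair germ SHERRY2, 0 of 41 members passed among 26139 genes tested (31 genes passed). Against SMART-seq, 0 of 33 members passed among 18806 (8 genes passed). The difference for Sprr1a, hair germ minus bulge, was 2.23 on the log2 scale for SHERRY2 (SE 0.57, edgeR adjusted p = 0.187) and 2.79 for SMART-seq (SE 0.73, edgeR adjusted p = 0.588). For S100a13 it was 1.69 (SE 0.64, edgeR adjusted p = 0.518) and 0.81 (SE 0.37, edgeR adjusted p = 0.738). These fits share the bulge libraries, so the 2 differences of a gene are not independent.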

How the data were processed

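For the bulge the authors deposited a read count and an FPKM value per gene, and for SMART-seq read counts. Recomputing FPKM from the deposited counts and exonic sizes differed by at most 0.495% where every library had 100 reads or more and an FPKM of 1 or more. Gene positions in the bulge table differ from those of GRCm38.p6, so they served only to order genes. The hair germ SHERRY2 table of the authors holds a normalized signal (reads over a size factor of 0.632 to 1.36), which is on a linear scale. Dividing by the smallest step gave whole reads (tolerance 0.01) for 100% of its values. Per the submitters' processing notes, tools included STAR, featureCounts and DESeq2, with GRCm38 and mm10, and for SMART-seq also HISAT2 and GRCm39. Their roles, versions and use of strand: not given in the sources used here.

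Bulge and SMART-seq reads were compared by edgeR 4.0.16 (R 4.3.3, quasi-likelihood test, TMM, filterByExpr). Because the hair germ SHERRY2 table holds no counts, limma 3.58.1 with a trend was used on log2(normalized count + 1), where the gene's mean was 1 or more. That scale understates changes of low genes. Tests were two-sided, cKO against WT, with Benjamini-Hochberg adjustment over every gene tested and a threshold of 0.05. With 2 against 2, an exact permutation test cannot go below p = 0.333. Printed CPM use TMM-scaled library sizes, and FPKM outside the bulge use the bulge table's exonic sizes. Each library is 1 mouse number. Alternatives were RLE scaling, no filter, DESeq2 1.42.0, a replicate block, another pseudocount or mean, edgeR on recovered reads, and each library left out. Scripts were tested on simulated data.

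The members and the 15 gene lists were chosen with earlier results of these data known. Named members are those past 0.05, the 3 of each family with the highest FPKM, and the 5 others with the smallest p in each dataset. Of other lists, up to 4 genes with the smallest p are named. Genes named beyond this rule were chosen after their values were seen.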

Additional observations from a re-analysis of the deposited data

Results flagged for a closer look

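In 3 of the members tested in both datasets, the groups were separated in opposite directions in the bulge and in a hair germ dataset. Separation alone was common: in the bulge, 26.2% of all genes tested had both cKO libraries below both WT libraries and 24.7% above. In hair germ SHERRY2 these shares were 16.4% and 16.4%, and by SMART-seq 12.5% and 11.8%. The share of all genes separated in opposite directions was not counted. For S100a1, both cKO libraries lay below both WT libraries in the bulge (18.8 and 19.8 CPM in WT, 14.3 and 9.08 in cKO) and above them in hair germ SHERRY2 (26.4 and 7.91 normalized counts in WT, 47.7 and 47.4 in cKO). In hair germ SHERRY2 the WT2 value of S100a1 is within the level of receptor genes. The difference of the genotype effects was 1.83 on the log2 scale (edgeR adjusted p = 0.392). For Tchh, both cKO libraries lay above WT in the bulge and below it in hair germ SHERRY2, where it had 16 to 23 reads a library, and the difference was -1.66 (edgeR adjusted p = 0.556). For Sprr4, both cKO libraries lay below WT in the bulge and above it by SMART-seq, and the difference was 3.93 (edgeR adjusted p = 0.605). None of these 3 differences passed the adjustment over all genes, and the SMART-seq direction rests on libraries that Alkbh5 does not separate by label. Crnn, which had too few reads for the test within either dataset, was also separated in opposite directions, with 0 reads in both bulge WT libraries and 5 and 2 in cKO, against 10 and 26 in WT and 2 and 6 in the libraries labelled cKO by SMART-seq (joint fit, edgeR adjusted p = 0.713).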

How the results depend on the processing

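In the bulge, 476 genes were called, against 1549 without the filter on low counts, 1191 by DESeq2 and 218 to 1601 with 1 library left out. Members called lower went from 2 of 32 tested, beside 1.6% of all genes, to 12 of 47 without the filter, beside 3.05%. DESeq2 called 5 of 47, beside 2.3%. The replicate block called 6 of 32, beside 1.91% (Crct1, Flg2, Lce1m, Lor, Sprr1a and Sprr4). Calls in the other gene lists, 22 in all, became 68 without the filter, 41 by DESeq2 and 37 with the replicate block. Mouse numbers were not taken as pairs: the correlation of deviations between same-numbered libraries was -0.0719 in the bulge, -0.214 in hair germ SHERRY2 and 0.23 by SMART-seq, and with 2 pairs the labels give no shared litter or day. With the replicate block, the log2 fold change of Lce1a1 was 0.000357 and thus changed sign, and S100a13 did not pass (edgeR adjusted p = 0.055).

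Fold changes with 1 library left out were followed only for members named by rule. In the bulge, the log2 fold change of these turned sign for Flg2 (-2.96 to 0.56), Hrnr (-1.38 to 1.06), Lce1a1 (-1.13 to 1.5), Lce1a2 (-2.95 to 0.74), Lor (-2.69 to 0.33), S100a11 (-0.044 to 0.085) and S100a6 (-0.41 to 0.059). Flg and Kprp were not followed there. Their WT2 levels, 3.20 and 5.41 CPM, lay between those of cKO1 (7.49 and 19.0) and cKO2 (1.28 and 3.71). By SMART-seq, among the 5 members with the smallest p, it turned sign for Tchh (-1.43 to 0.26). Over all alternatives, the fold changes of named members kept direction and side of the threshold 92 times in the bulge, passed newly 28 times, ceased to pass 4 times and turned sign 12 times. In the joint fits, 0 members passed under either scaling.

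In hair germ SHERRY2, the 3 genes called became 0 with a pseudocount of 0.1, without the filter on the mean or by DESeq2, 16 with a mean of at least 10, 5 with the replicate block, 63 with edgeR on recovered reads and 0 to 105 with 1 library left out. Members called, 0 at first, became 3 of 28 tested with a mean of at least 10 (Crct1, Kprp and Lce1m), beside 0.0348% of all genes called lower. They became 2 of 58 with the replicate block (Lce1i and Lce1m), beside 0.00513%, and 6 of 20 with edgeR on recovered reads, beside 0.275%. The limma median log2 fold change outside the S100a family was -1.05 with all libraries. It was -0.14 without WT1, -2.36 without WT2, -1.04 without cKO1 and -1.27 without cKO2. Other lists went from 0 to 7 with edgeR on recovered reads and to between 0 and 9 with 1 library left out. Leaving out libraries from the edgeR fit on recovered reads, an alternative added after seeing the data, gave 1 to 113 genes, 0 to 17 members and 0 to 13 genes of other lists. By SMART-seq, 0 genes became 30, and 0 of other lists became 6, without the filter on low counts. In every case the cause was not tested. Hair germ SHERRY2 had the lowest depth of the 3 datasets, and Lce1i rests on 36 reads in all there.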
